A study of Homo sapiens with 4 samples.

Results

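Transcript levels of 10 regulators of B cell development were followed in SUP-M2, an established human line of anaplastic large cell lymphoma. This tumour is of mature T cell origin, and the line carries an active ALK kinase. The genes were EBF1, PAX5, TCF3, ID2, ID3, POU2F2, POU2AF1, BLK, IKZF1 and IKZF3, taken by name from a table of 58735 genes. They were selected on their measured values in these libraries, namely that EBF1 and BLK are transcribed in this T lineage line and that EBF1 is low in one of the GOLM1 hairpin libraries. The levels of both and the differences of EBF1 are therefore a description and carry no test. The libraries were 2 of SUP-M2 with short hairpin RNA against GOLM1 (shGOLM1), which the genotype label calls a GOLM1 knockout, and 2 of SUP-M2 with a scrambled hairpin (shscramble), labelled control. Whether 1 hairpin sequence was used for both shGOLM1 libraries, and whether replicates were separate cultures, is not stated in the labels. The p-values thus reflect the spread among these libraries alone, and that spread may be technical.

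EBF1 and PAX5 are transcription factors that commit lymphoid progenitors to the B lineage. They act downstream of E proteins such as the product of TCF3, which bind DNA as dimers at E boxes. ID proteins dimerise with E proteins and keep them from DNA, and high ID2 has been described in Hodgkin and anaplastic large cell lymphoma. POU2F2 and its coactivator POU2AF1 act on octamer sites of immunoglobulin genes, BLK is a Src family kinase of B cells, and IKZF1 and IKZF3 are zinc finger factors of the Ikaros family used by both B and T cells.

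The libraries held 27544171 to 30889185 counts in shGOLM1 and 31608073 to 31972153 counts in shscramble. GOLM1 was at 69.6 and 69.5 CPM (counts relative to TMM-scaled library totals) in shGOLM1 replicates 1 and 2, against 212 and 213 CPM in shscramble replicates 1 and 2. The shGOLM1 libraries stood far apart from each other, with a coefficient of variation between replicates of 66.7% in the shGOLM1 pair and 9.1% in the shscramble pair. The mitochondrial genome gave 0.455% of the counts of shGOLM1 replicate 2, against 1.95% in shGOLM1 replicate 1 and 2.24% to 2.38% in shscramble. Ribosomal protein genes took 14.7% in shGOLM1 replicate 2, against 6.57% in shGOLM1 replicate 1 and 7.44% to 8.77% in shscramble, and the part of these differences in the results below was not tested. ALK, the kinase active in this line, was at 327 and 170 CPM in shGOLM1 and at 340 and 316 CPM in shscramble. TNFRSF8, which encodes CD30, was at 539 and 88.4 CPM in shGOLM1 and at 634 and 614 CPM in shscramble. IL2RA, the alpha chain of the interleukin-2 receptor, was at 345 and 599 CPM in shGOLM1 and at 476 and 469 CPM in shscramble. PRF1, which encodes the cytotoxic protein perforin, was at 621 and 145 CPM in shGOLM1 and at 2.91 and 2.71 CPM in shscramble (log2 fold change 7.09, SE 0.957, edgeR adjusted p = 0.42, DESeq2 adjusted p = 4.25e-20). Of 7 markers of this lymphoma, 6 were tested, with 0 called by edgeR and 1, PRF1, by DESeq2 (3.33% of all its genes called). Of the 6, 1 lay higher in both shGOLM1 libraries (25.2% of all tested genes did), 2 lower (26.5%) and 3 overlapped. Of 8 B cell markers, among them MS4A1, CD79A, PAX5 and IGHM, 4 were at 0 counts in every library and 6 never passed 3 counts. Their summed level was 0.375 and 0.659 CPM in shGOLM1 and 0.245 and 0.18 CPM in shscramble. Of 15 T cell markers, 6 never passed 3 counts in a library, among them CD3E, CD3G and CD8A, while CD4 was at 307 and 380 CPM in shGOLM1 and at 182 and 180 CPM in shscramble. CD247 was at 35.1 and 87.6 CPM in shGOLM1 and at 29.4 and 24.8 CPM in shscramble. TRAC was at 10.7 and 12.3 CPM against 5.98 and 3.19 CPM, and CD2 at 5.08 and 5.8 CPM against 2.18 and 2.86 CPM. CD3D, named after its values were seen, was at 0.548 and 6.24 CPM in shGOLM1 and at 1.84 and 1.35 CPM in shscramble. Of the 7 T cell markers tested, 4 lay higher in both shGOLM1 libraries (25.2% of all tested genes did), 1 lower (26.5%) and 2 overlapped. The whole T cell list summed to 360 and 492 CPM in shGOLM1 and to 223 and 214 CPM in shscramble, with CD4 making up most of the sum in each library.

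**Figure D1:**
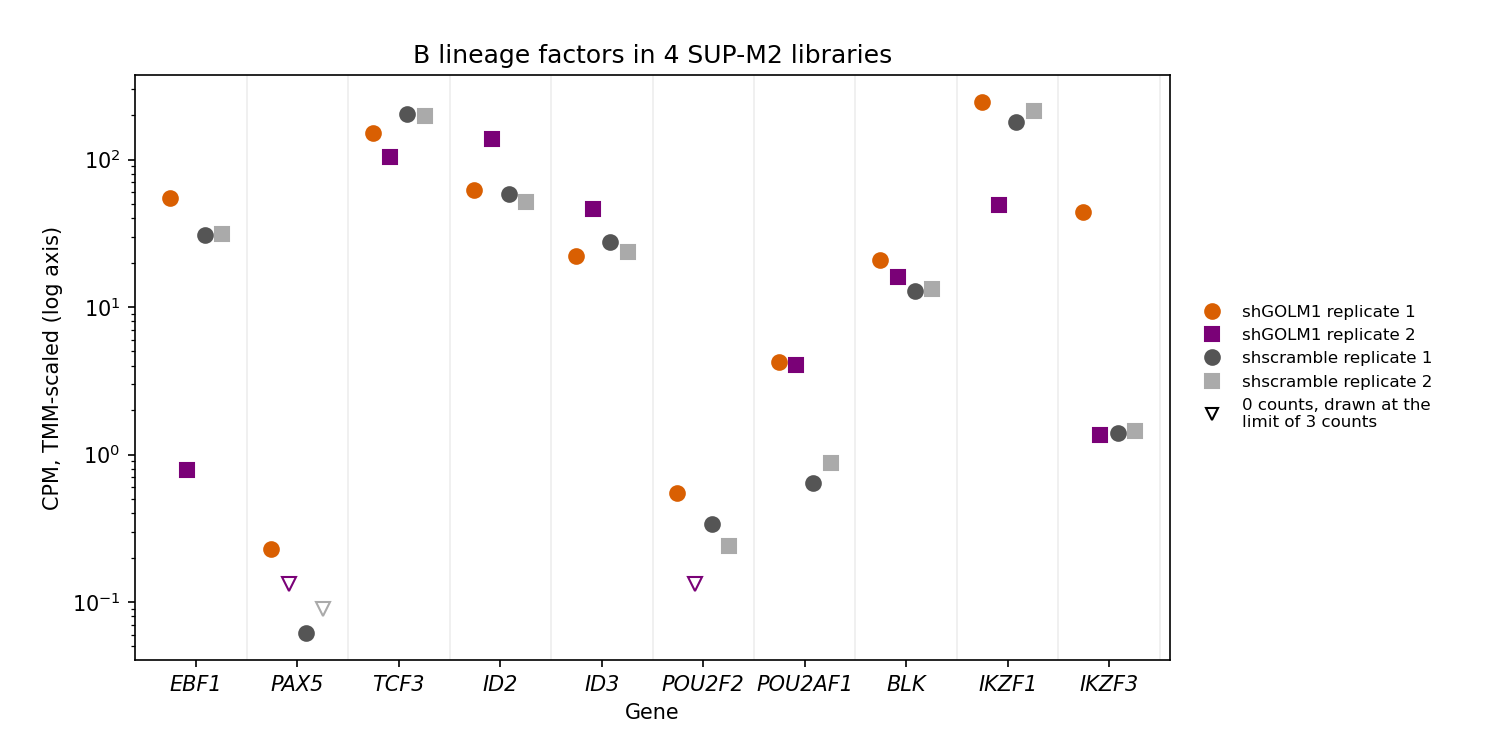
CPM (log axis) of the 10 B lineage factors in each library, with shGOLM1 replicates 1 and 2 left of shscramble replicates 1 and 2. Each point is 1 library, and an open triangle is a library with 0 counts, drawn at the CPM that 3 counts would give. EBF1 and IKZF3 differ most between the shGOLM1 libraries, whereas POU2AF1 is at 4.21 and 4.04 CPM in them.

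Levels of the factors were compared per length in the authors' FPKM. In the scrambled-hairpin cells the E protein gene TCF3 and the inhibitors ID2 and ID3 stood above EBF1 and PAX5, which commit cells to the B lineage. TCF3 was highest at 32.6 ± 0.96 FPKM, followed by ID2 at 24.7 ± 2.16, IKZF1 at 17.8 ± 1.98 and ID3 at 14.1 ± 1.54 FPKM (SD, n = 2 each). EBF1 followed at 4.97 ± 0.0926 FPKM and BLK at 2.54 ± 0.0527 FPKM, levels above those of 69.9% and 62.1% of protein-coding genes in the table. These shares include genes with 0 counts, and by the same measure PAX5, with 2 and 0 counts in shscramble, stood above 34.2%. IKZF3 at 0.141 ± 0.00229, POU2AF1 at 0.101 ± 0.0215, POU2F2 at 0.0315 ± 0.00746 and PAX5 at 0.00325 ± 0.0046 FPKM were near the floor (SD, n = 2 each). The ranges of the shscramble libraries did not overlap for any of the 9 neighbouring pairs in this order, which is a description of a pair of libraries and not a test. In shGOLM1 replicate 1 the authors' FPKM put ID2 (27.6) ahead of TCF3 (24.1), and IKZF3 (4.31) just ahead of BLK (4.01). In shGOLM1 replicate 2 it put both ID2 (60.8) and ID3 (24.9) ahead of TCF3 (16.6), and EBF1, at 0.124 FPKM, lay below POU2AF1 at 0.529 FPKM.

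At a threshold of 0.05 on the adjusted p, 0 of 14166 tested genes (0%) passed edgeR's quasi-likelihood test of shGOLM1 against shscramble, with 1668 genes at an unadjusted p under 0.05 (11.8%). DESeq2 called 533 genes (3.33%), 3.1% of its genes as higher and 0.238% as lower in shGOLM1, and limma-voom called 0. PAX5 did not pass the filter on low counts, which left 9 of the 10 factors in the test. Of the 8 without EBF1, edgeR called 0, with adjusted p from 0.42 to 0.998, and 1, POU2AF1, had an unadjusted p under 0.05. DESeq2 called 1 of the 8, IKZF3. With single shGOLM1 libraries set against the shscramble pair, edgeR called 4 of the 8 higher and 1 lower in replicate 1, where 44.5% of genes were called, and 3 higher and 2 lower in replicate 2, where 67.4% were. Against the shscramble pair, 3 of the 8 lay higher in both shGOLM1 libraries (25.2% of all tested genes did), 1 lay lower in both (26.5%), and 4 overlapped. In 3 of the 8 (POU2F2, IKZF1 and IKZF3), shGOLM1 replicate 1 lay above and replicate 2 below both shscramble libraries (16.7% of tested genes), and in 1, ID3, the reverse held (16.3%). EBF1 had the first of these patterns too, but it was selected on its low value and is not counted. On the log2 CPM scale the 8 factors had a median difference to shscramble of 0.51 for shGOLM1 replicate 1 and 0.11 for replicate 2, beside 0.0042 and -0.0385 over all tested genes.

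**Figure D2:**
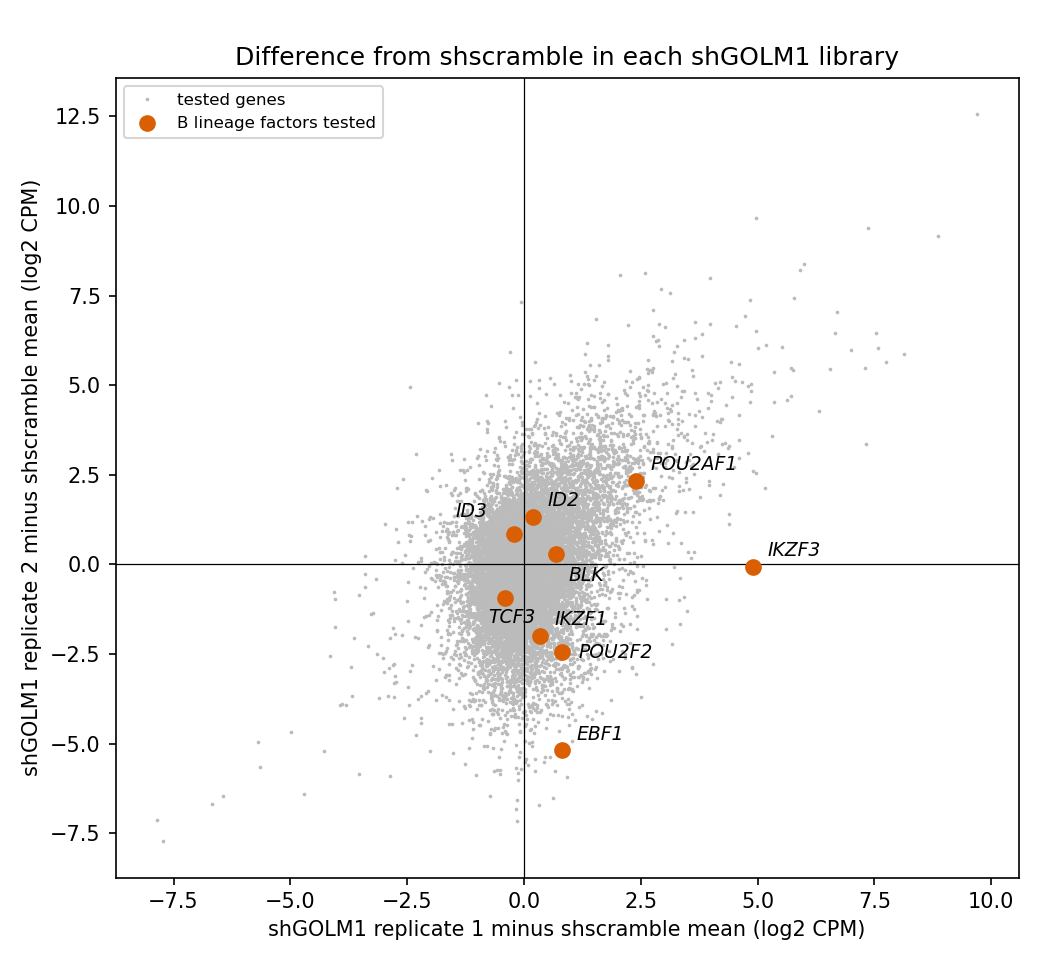
Difference from the shscramble mean (log2 CPM) in shGOLM1 replicate 1 (horizontal axis) and shGOLM1 replicate 2 (vertical axis) for each tested gene in grey, with the 9 tested B lineage factors in orange. POU2AF1 lies at 2.39 and 2.33, IKZF3 at 4.90 and -0.06, and EBF1 at 0.82 and -5.18. The vertical place of POU2F2 rests on 0 counts in shGOLM1 replicate 2 and depends on the prior count of 2.

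EBF1 (ENSG00000164330, GRCh38 chromosome 5, 158695916 to 159099761, minus strand) had 1895 and 18 counts in shGOLM1 replicates 1 and 2, against 999 and 1046 counts in shscramble replicates 1 and 2. On the CPM scale that is 54.6 and 0.791 in shGOLM1 and 30.6 and 31.5 in shscramble. Replicate 1 of shGOLM1 was the highest library of all, 1.76-fold over the shscramble mean, and replicate 2 was the lowest, 39.2-fold under it, so the groups overlap. Of 14166 tested genes, 41, EBF1 included, were as low or lower in shGOLM1 replicate 2 relative to shscramble. As large a surplus of replicate 1 over replicate 2 was found in 9, EBF1 included. Because EBF1 was selected on this low value, an extreme rank was built in, and these counts are no test. The group means, 27.7 ± 38.1 CPM in shGOLM1 and 31 ± 0.59 CPM in shscramble (SD, n = 2 each), differ by a log2 fold change of -0.16 (SE 1.64). That value moves to 0.80 without shGOLM1 replicate 2 and to -5.34 without shGOLM1 replicate 1. In these bulk libraries, fewer cells with the transcript and less transcript per cell cannot be told apart.

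The stretch before the start is shown for EBF1 and IKZF1, with E boxes, where E proteins bind, marked. These genes were picked after their values were seen, and a link between E boxes and their levels was not tested. The 2 sequences, from RefSeq on GRCh38.p14, run 5′ to 3′ on the gene's strand from 250 to 51 bases before the start, at chr5:159098007-159098206 (minus strand) for EBF1 and chr7:50304466-50304665 (plus strand) for the first of 3 IKZF1 starts. Capitals mark E boxes, CANNTG, a pattern that reads the same on both strands. Both stretches lie inside the gene as the deposited table bounds it.
EBF1: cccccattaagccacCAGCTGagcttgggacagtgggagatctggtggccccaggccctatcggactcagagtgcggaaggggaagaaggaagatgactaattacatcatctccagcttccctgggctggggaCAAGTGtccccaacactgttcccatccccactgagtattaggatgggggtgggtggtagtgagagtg
IKZF1: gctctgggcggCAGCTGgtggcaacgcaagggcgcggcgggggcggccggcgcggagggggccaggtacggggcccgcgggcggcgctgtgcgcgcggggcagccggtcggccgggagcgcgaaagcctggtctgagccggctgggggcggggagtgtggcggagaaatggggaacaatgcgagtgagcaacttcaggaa
EBF1 has 2 such matches and this start of IKZF1 has 1, while the other IKZF1 starts have 0. POU2F2 has 2 matches, ID2 has 1, and PAX5, TCF3 and ID3 have 0. For scale, 54.6% of 35116 promoter windows of the same length hold at least 1. The palindromic core of EBF binding sites, CCCNNGGG, was found in 13.9% of windows. Among them were those of the first IKZF1 start and of ID2, and not those of the other IKZF1 starts or of EBF1. The octamer ATTTGCAT, searched on both strands, was in 1.29% of windows and in none of the windows of the 7 factors that the RefSeq table holds. A match is a string of letters and no measured site.

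PAX5 (ENSG00000196092, chromosome 9, 36833275 to 37034185, minus strand), the factor that maintains B cell identity, had 8 and 0 counts in shGOLM1 replicates 1 and 2, against 2 and 0 counts in shscramble replicates 1 and 2. With a limit of 3 counts for a library at 0, its difference was not detectable at this depth, and no fold is given. EBF1 was thus transcribed beside almost no PAX5. Surface and antigen receptor genes of B cells, several of them known targets of both factors, were also at or near 0 counts. Of 17 B cell identity genes, 11 were at 0 counts in all 4 libraries, among them MS4A1, CD79B, VPREB1, IGLL1 and IGHM, and 14 never passed 3 counts. CD79A, a subunit of the B cell antigen receptor, had 0 and 15 counts in shGOLM1 and 6 and 6 in shscramble. The exception was BANK1, a scaffold protein of B cell receptor signalling, at 14.2 and 23.1 CPM in shGOLM1 and 12.3 and 14.3 CPM in shscramble. It was the only gene of this list with enough counts to be tested, its groups overlap, and it did not pass (log2 fold change 0.49, SE 0.41, edgeR adjusted p = 0.631).

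TCF3 (ENSG00000071564, chromosome 19, 1609290 to 1652605, minus strand), whose transcripts encode the E proteins E12 and E47, was the only one of the 9 tested factors to lie lower in both shGOLM1 libraries. It measured 150 and 104 CPM in shGOLM1 replicates 1 and 2, against 205 and 196 CPM in shscramble replicates 1 and 2. The groups do not overlap, the mean being 127 ± 33 CPM in shGOLM1 and 200 ± 5.82 CPM in shscramble (SD, n = 2 each), 1.58-fold lower. With a log2 fold change of -0.66 (SE 0.32) it did not pass edgeR's test (adjusted p = 0.48). Set alone against the shscramble pair, shGOLM1 replicate 1 passed edgeR's test as lower (log2 fold change -0.43, adjusted p = 0.00425), where 24.1% of tested genes were called lower. Replicate 2 also passed (-0.998, adjusted p = 8.33e-07), where 34.1% were. Such fits compare single libraries, not conditions, and take the lone library to vary like the shscramble pair.

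ID2 (ENSG00000115738, chromosome 2, 8678845 to 8684453, plus strand), an inhibitor of E proteins needed for innate lymphoid and cytotoxic T cells, measured 62.6 and 138 CPM in shGOLM1 replicates 1 and 2, against 58.3 and 51.5 CPM in shscramble replicates 1 and 2. Both shGOLM1 libraries lay above both shscramble libraries, but replicate 1 by little. The means were 100.3 ± 53.4 CPM in shGOLM1 and 54.9 ± 4.8 CPM in shscramble (SD, n = 2 each), with a log2 fold change of 0.87 (SE 0.47) that did not pass (edgeR adjusted p = 0.499). Alone, replicate 2 passed edgeR's test as higher (log2 fold change 1.28, adjusted p = 5.53e-08), where 33.3% of tested genes were called higher, and replicate 1 did not (0.17, adjusted p = 0.283).

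ID3 (ENSG00000117318, chromosome 1, 23557918 to 23559794, minus strand), an inhibitor of E proteins induced by antigen receptor signalling, measured 22 and 46.1 CPM in shGOLM1 replicates 1 and 2, against 27.6 and 23.6 CPM in shscramble replicates 1 and 2. It was the factor with shGOLM1 replicate 2 above and replicate 1 below both shscramble libraries, and its groups overlap. Its log2 fold change was 0.41 (SE 0.46, edgeR adjusted p = 0.716), and -0.23 without shGOLM1 replicate 2. In replicate 2 alone it passed edgeR's test as higher (0.80, adjusted p = 8.49e-05).

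Within a library the ratio of E protein to inhibitor transcripts does not depend on the scaling between libraries. The authors' FPKM of TCF3 over that of ID2 was 0.872 and 0.273 in shGOLM1 replicates 1 and 2, against 1.27 and 1.38 in shscramble replicates 1 and 2. In this ratio shGOLM1 was lower in each library than shscramble in either, which was chosen after its values were seen and was not tested. Over the whole family the picture differed, with summed FPKM of TCF3, TCF4 and TCF12 over ID1, ID2 and ID3 at 0.393 and 0.183 in shGOLM1, against 0.384 and 0.421 in shscramble. Here replicate 1 lay inside the shscramble range.

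Of the 7 other E proteins and inhibitors listed, 3 were tested. ID1 and TCF12 lay lower in both shGOLM1 libraries (26.5% of all tested genes did), while TCF4 overlapped. ID1, a paralogue of ID2, was at 49.4 and 36.3 CPM in shGOLM1 and 86 and 78.3 CPM in shscramble (log2 fold change -0.94, SE 0.31). TCF12, an E protein of early T cells, was at 50.8 and 39.2 CPM in shGOLM1 and 71.9 and 76.3 CPM in shscramble (-0.72, SE 0.30). TCF4, an E protein of plasmacytoid dendritic cells, was at 44.8 and 8.57 CPM in shGOLM1 and 44.4 and 48 CPM in shscramble (-0.79, SE 0.81). None of the 3 passed edgeR's test (adjusted p = 0.42 to 0.695) or DESeq2. LYL1, a partner of E proteins in blood progenitors, had 9 and 0 counts in shGOLM1 and 4 and 5 counts in shscramble, too few to be tested.

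POU2AF1 (ENSG00000110777, chromosome 11, 111352252 to 111455630, minus strand), the B cell coactivator of octamer factors, was the one factor with like and high values in both shGOLM1 libraries. It had 146 and 92 counts in shGOLM1 replicates 1 and 2, against 21 and 29 counts in shscramble replicates 1 and 2, or 4.21 and 4.04 CPM against 0.644 and 0.872 CPM. The groups do not overlap, and the gap of 5.44-fold between means of 4.13 ± 0.119 CPM in shGOLM1 and 0.758 ± 0.161 CPM in shscramble (SD, n = 2 each) exceeds the spread within either pair. The log2 fold change of 2.44 (SE 0.54) had an unadjusted p of 0.00816 and did not pass after adjustment over all genes (edgeR adjusted p = 0.42, DESeq2 adjusted p = 0.0582). In the authors' deposited table the log2 fold change is 2.42 and the adjusted p is 0.0577. Alone, each shGOLM1 library passed edgeR's test as higher, with adjusted p = 3.66e-05 for replicate 1 (20.4% of tested genes called higher) and 0.000202 for replicate 2 (33.3%). Even so, 342 tested genes were at least as high over shscramble in replicate 1 and 1085 in replicate 2. The nearest protein-coding genes on either side, COLCA2, C11orf53, BTG4 and C11orf88, had 0 counts in every library. COLCA2 and C11orf53, now named POU2AF3 and POU2AF2, encode other coactivators of this family.

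POU2F2 (ENSG00000028277, chromosome 19, 42086110 to 42196585, minus strand), the lymphoid octamer factor OCT2, stayed at the floor with 19 and 0 counts in shGOLM1 replicates 1 and 2, against 11 and 8 counts in shscramble replicates 1 and 2. The 0 counts in shGOLM1 replicate 2 allow up to 0.132 CPM, so that library was at least 2.19-fold lower than the shscramble mean of 0.289 CPM, with the limit of 3 counts set per library. This bound takes the shscramble mean as exact, although it rests on few counts. The shGOLM1 libraries lie on both sides of shscramble, and the fit gave a log2 fold change of -0.01 (SE 1.61, edgeR adjusted p = 0.998), which turned to 0.06 with scaling by library totals alone. Its widely expressed paralogue POU2F1 (OCT1) was at 52 and 34.3 CPM in shGOLM1 and 31.7 and 41.3 CPM in shscramble, with overlapping groups. Of 11 genes listed with the EBF, PAX and POU2 families, 5 were at 0 in all libraries, EBF2 and EBF3 among them. Of the 6 tested, 2 lay higher in both shGOLM1 libraries (25.2% of all tested genes did) and 4 overlapped, with none called by edgeR or DESeq2. PAX8, better known from thyroid and kidney, was at 6.83 and 7.03 CPM in shGOLM1 and 3.68 and 3.49 CPM in shscramble (log2 fold change 0.95, SE 0.42, edgeR adjusted p = 0.45). ZNF521, which antagonises EBF1, was at 4.84 and 1.49 CPM in shGOLM1 and 2.88 and 3.31 CPM in shscramble. RNF219, a ubiquitin ligase that the list held although it is outside these families, was at 33.7 and 17 CPM in shGOLM1 and 28.5 and 28 CPM in shscramble. EBF4, a paralogue of EBF1 named after its values were seen, had 19 and 36 counts in shGOLM1 and 0 and 2 counts in shscramble (edgeR adjusted p = 0.42).

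BLK (ENSG00000136573, chromosome 8, 11486894 to 11564604, plus strand) had 726 and 363 counts in shGOLM1 replicates 1 and 2, against 418 and 439 counts in shscramble replicates 1 and 2. In CPM it was at 20.9 and 15.9 in shGOLM1 and 12.8 and 13.2 in shscramble. Both shGOLM1 libraries lay higher, with means of 18.4 ± 3.53 CPM in shGOLM1 and 13 ± 0.275 CPM in shscramble (SD, n = 2 each). The log2 fold change of 0.50 (SE 0.35) did not pass edgeR's test (adjusted p = 0.578), and alone replicate 1 passed (0.67, adjusted p = 0.0015) while replicate 2 did not (0.25, adjusted p = 0.212). An overlapping antisense gene, AC022239.1, had 26 and 101 counts in shGOLM1 and 3 and 24 counts in shscramble. Without a stated strand setting of the counting, reads of BLK and of this gene may not be fully separated. The same limit holds for IKZF1, whose overlapping antisense gene AC124014.1 had 19 and 66 counts in shGOLM1 and 2 and 14 in shscramble. FAM167A, the protein-coding gene nearest to BLK, 10986 bases away, was at 16.6 and 16.1 CPM in shGOLM1 and 5.27 and 5.77 CPM in shscramble. It lay higher in both shGOLM1 libraries, as did 25.2% of all tested genes. NEIL2, 205035 bases away on the other side, was at 31.5 and 15.2 CPM in shGOLM1 and 34.6 and 35.2 CPM in shscramble. It lay lower in both shGOLM1 libraries, as did 26.5%. These neighbours were looked at after the values of BLK were seen.

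Among the 8 other Src family kinases, 3 were tested, with none called by edgeR or DESeq2. Of these, 1 lay higher in both shGOLM1 libraries (25.2% of all tested genes did), 1 lower in both (26.5%) and 1 overlapped. LYN, a kinase shared by B and myeloid cells, led them at 62.8 and 74.3 CPM in shGOLM1 and 81.5 and 77.6 CPM in shscramble. YES1 was at 13.8 and 12.5 CPM in shGOLM1 and 6.93 and 8.39 CPM in shscramble. FRK was at 6.14 and 2.68 CPM in shGOLM1 and 2.88 and 2.83 CPM in shscramble, and SRC had 56 and 4 counts in shGOLM1 and 7 and 1 in shscramble. The T cell kinases LCK and FYN, named after their values were seen, never passed 9 counts, with 0 and 9 counts of LCK and 1 and 0 of FYN in shGOLM1 and 0 and 3 counts of LCK and 9 and 3 of FYN in shscramble.

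Further along the antigen receptor pathway of B cells, 6 of 12 genes had 0 counts in every library, among them the kinases SYK and BTK. Of the 5 tested, 3 lay higher in both shGOLM1 libraries (25.2% of all tested genes did), 1 lower (26.5%) and 1 overlapped. None was called by edgeR or DESeq2. PLCG2, a phospholipase activated by BTK, was at 48.3 and 42.1 CPM in shGOLM1 and 19.4 and 22.5 CPM in shscramble (log2 fold change 1.11, SE 0.30). PIK3AP1, an adaptor that links the receptor to phosphoinositide 3-kinase, was at 84.8 and 105 CPM in shGOLM1 and 35.3 and 41 CPM in shscramble (1.31, SE 0.30). DAPP1, an adaptor that binds phosphoinositides, was at 102 and 90.6 CPM in shGOLM1 and 176 and 170 CPM in shscramble (-0.85, SE 0.27). All 3 had an edgeR adjusted p of 0.42. VAV2, an exchange factor, was at 33.3 and 13.5 CPM in shGOLM1 and 27.2 and 25.7 CPM in shscramble.

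IKZF1 (ENSG00000185811, chromosome 7, 50304068 to 50405101, plus strand), which encodes Ikaros, had 8566 and 1123 counts in shGOLM1 replicates 1 and 2, against 5895 and 7041 counts in shscramble replicates 1 and 2. In CPM that is 247 and 49.3 in shGOLM1 and 181 and 212 in shscramble. Replicate 1 lay above and replicate 2 below both shscramble libraries, 3.98-fold under their mean. The log2 fold change of -0.40 (SE 0.79, edgeR adjusted p = 0.84) changed sign without shGOLM1 replicate 2, to 0.32. Alone, replicate 2 passed edgeR's test as lower (-2.04, adjusted p = 1.45e-09) and replicate 1 as higher (adjusted p = 0.0332), so the libraries passed in opposite directions.

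IKZF3 (ENSG00000161405, chromosome 17, 39757715 to 39864188, minus strand), which encodes Aiolos, a partner of Ikaros in mature B and T cells, had 1539 and 31 counts in shGOLM1 replicates 1 and 2, against 46 and 48 counts in shscramble replicates 1 and 2. In CPM it was at 44.4 and 1.36 in shGOLM1 and at 1.41 and 1.44 in shscramble. Replicate 1 of shGOLM1 was 31.1-fold over the shscramble mean, and replicate 2 lay within 1.05-fold of it. The log2 fold change of 4.001 (SE 1.65) did not pass edgeR's test (adjusted p = 0.439) and passed DESeq2 (adjusted p = 0.00528). In the authors' deposited table it is 3.98, and the adjusted p is 0.00523. Without shGOLM1 replicate 1 the log2 fold change was -0.12 (edgeR adjusted p = 0.849), so its direction rests on that library. In replicate 1 only 33 of 14166 tested genes, IKZF3 included, were as high or higher over shscramble. The authors' FPKM of IKZF3 over that of IKZF1 was 0.196 and 0.0301 in shGOLM1, against 0.00852 and 0.00745 in shscramble. Around IKZF3, GSDMB, a gasdermin gene 40407 bases away, had 138 and 725 counts in shGOLM1 and 55 and 41 in shscramble, highest in shGOLM1 replicate 2 and lowest in the shscramble libraries. GSDMB thus lay higher in both shGOLM1 libraries, as did 25.2% of all tested genes. The adjacent ZPBP2 had 19 and 4 counts in shGOLM1 and 0 and 1 in shscramble, too few to be tested. On the other side, MIEN1 was at 6.08 and 16.3 CPM in shGOLM1 and 9.72 and 9.59 CPM in shscramble. Its groups overlap. GRB7, nearer to IKZF3 than MIEN1, had 0 and 0 counts in shGOLM1 and 0 and 3 in shscramble.

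All 6 other Ikaros family members and partners were tested, with none called by edgeR or DESeq2. Of them, 2 lay lower in both shGOLM1 libraries (26.5% of all tested genes did) and 4 overlapped. IKZF4 (Eos) was at 21.6 and 9.58 CPM in shGOLM1 and 23 and 23.7 CPM in shscramble. The chromatin partners MTA2, HDAC1 and CHD4 were at 192 and 150, 107 and 249, and 34.3 and 24.5 CPM in shGOLM1 replicates 1 and 2, against 217 and 211, 157 and 152, and 27.2 and 29.4 CPM in shscramble.

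Of 16 other B lineage transcription factors, 5 had 0 counts in all libraries (SPI1, BACH2, IRF8, BCL11A and AFF3). Of the 11 tested, 3 lay higher in both shGOLM1 libraries (25.2% of all tested genes did), 2 lower (26.5%) and 6 overlapped. DESeq2, which called 3.33% of all its genes, called 1 of the 11, PRDM1, and edgeR called none. PRDM1, which encodes the plasma cell and effector T cell repressor BLIMP1, was at 127 and 86.3 CPM in shGOLM1 and 31.1 and 31.3 CPM in shscramble (log2 fold change 1.77, SE 0.34, edgeR adjusted p = 0.42, DESeq2 adjusted p = 0.0455). It is named here because it was that call. Among 5 plasma cell markers it was the only one tested, and JCHAIN and TNFRSF17 were at 0. The highest of the list was IRF4, a factor of plasma cells and activated T cells, at 2239 and 743 CPM in shGOLM1 and 1138 and 1208 CPM in shscramble. MYB was at 215 and 71.1 CPM in shGOLM1 and 140 and 146 CPM in shscramble. RUNX1 was at 226 and 93.2 CPM in shGOLM1 and 86.9 and 95.9 CPM in shscramble. ETS1 was at 142 and 78.2 CPM in shGOLM1 and 106 and 113 CPM in shscramble. In each of these 4 the shGOLM1 replicate 1 value was the highest of all libraries, and the groups overlap.

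For comparison, 9 of 11 T lineage factors were tested. DESeq2, which called 3.33% of all its genes, called 1 of the 9, TOX, and edgeR called none. Of the 9, 2 lay higher in both shGOLM1 libraries (25.2% of all tested genes did), 3 lower (26.5%) and 4 overlapped. Their median difference from shscramble was 0.21 in shGOLM1 replicate 1 and -0.73 in replicate 2 on the log2 scale. NOTCH1 was at 334 and 69.8 CPM in shGOLM1 and 173 and 204 CPM in shscramble, the order seen for IKZF1. RUNX3 was at 73.6 and 19.1 CPM in shGOLM1 and 59.6 and 58.6 CPM in shscramble. ZBTB7B was at 64.2 and 45.2 CPM in shGOLM1 and 56.6 and 54.4 CPM in shscramble. TOX, an exhaustion-associated factor named because it was the DESeq2 call (adjusted p = 0.00214, against 0.42 in edgeR), was at 4.33 and 11.9 CPM in shGOLM1 and 0.889 and 0.782 CPM in shscramble. In the myeloid list CSF1R made up nearly all of the sum, 309 and 231 CPM in shGOLM1 and 235 and 242 CPM in shscramble, and the defining factor SPI1 was at 0.

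**Figure D3:**
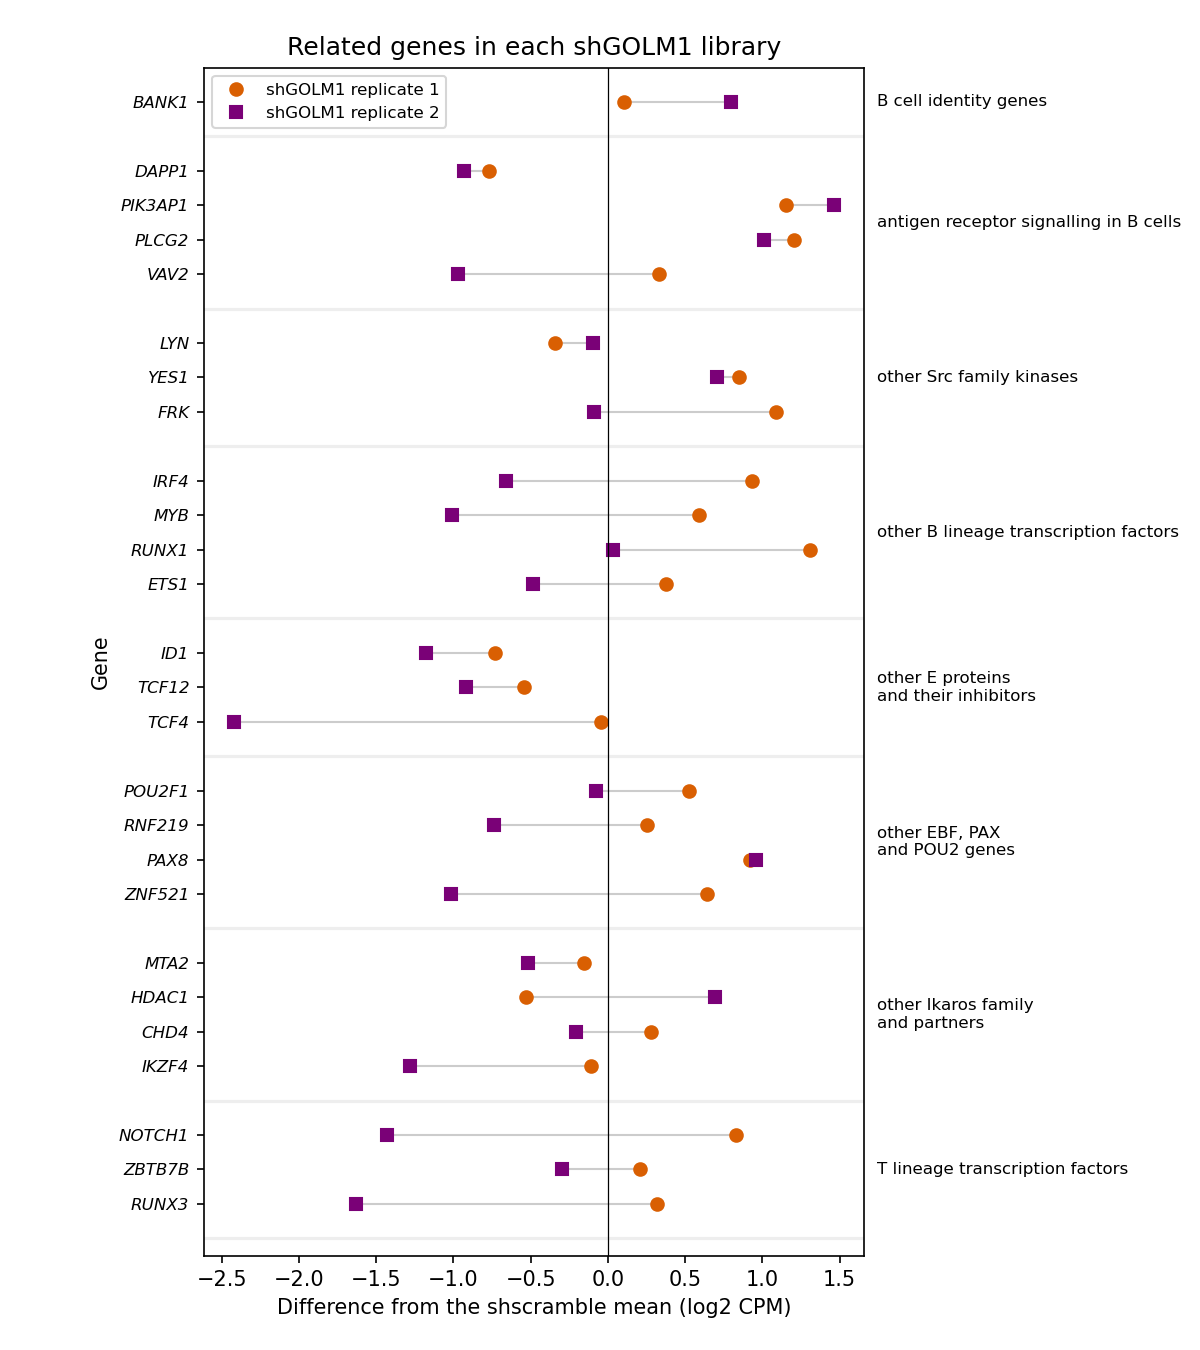
Difference from the shscramble mean (log2 CPM) in shGOLM1 replicate 1 (circles) and replicate 2 (squares) for tested genes among the most abundant members of each list of related genes, joined by a line per gene. ID1, TCF12, PIK3AP1, PLCG2, DAPP1, YES1 and PAX8 have both libraries on 1 side and close together, while TCF4, NOTCH1 and RUNX3 are far lower in replicate 2.

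Over the 4 libraries and 11330 tested protein-coding genes, those closest to EBF1 by distance between centred log2 CPM values were RIMBP3 (0.184), PARS2 (0.227) and SLC43A2 (0.474). RIMBP3, whose reads can be shared with near-identical copies, had 137 and 0 counts in shGOLM1 replicates 1 and 2, against 74 and 66 counts in shscramble replicates 1 and 2. PARS2, a mitochondrial prolyl-tRNA synthetase, had 317 and 2 counts in shGOLM1, against 198 and 211 in shscramble. SLC43A2, an amino acid transporter, had 580 and 6 counts in shGOLM1, against 469 and 461 in shscramble. Because they were picked for this likeness, all 3 have the profile of EBF1 by choice. That profile is a near loss in shGOLM1 replicate 2 and a value above shscramble in replicate 1. The closest to BLK were CCDC173 (0.0391), ZNF527 (0.0718) and BCAT1 (0.0729). BCAT1, a branched-chain amino acid transaminase, was at 256 and 187 CPM in shGOLM1 and 146 and 154 CPM in shscramble. With 4 libraries such likeness is a description only.

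The neighbours of EBF1 on the map differed less between the shGOLM1 libraries. EBF1 was selected for its low value in shGOLM1 replicate 2, so most genes would differ less, and the contrast is no test. RNF145, 57648 bases away, was at 195 and 105 CPM in shGOLM1 and 146 and 143 CPM in shscramble. CLINT1, the nearest protein-coding gene on the other side, lies 836741 bases away. It was at 212 and 171 CPM in shGOLM1 and 187 and 198 CPM in shscramble. UBLCP1, 163320 bases away, was at 45.6 and 12.4 CPM in shGOLM1 and 48.8 and 52.5 CPM in shscramble. These neighbours were examined after the values of EBF1 were seen, and the 2 antisense genes that overlap EBF1 had 0 counts in every library.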

How the data were processed

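RNA-seq was made from total RNA of 4 SUP-M2 libraries, grouped by their titles, with an mRNA-seq library kit, per the labels' protocols. The authors deposited raw counts per gene, and their own FPKM values. Beside these stand the authors' group means as signal, and their log2 fold change and p-value with its adjusted form, per the file headers. Aligner, counter and strand setting: not given in the sources used here. Mouse builds, GRCm38 and mm10, are named in the submitters' processing notes, but all 58735 gene identifiers and coordinates equal those of human GENCODE 29 on GRCh38, which also supplied the symbols.

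Counts were tested with edgeR 4.0.16 (limma 3.58.1, R 4.3.3): TMM factors, filterByExpr, quasi-likelihood test, two-sided, Benjamini-Hochberg adjustment over 14166 genes, threshold 0.05. Standard errors are the log2 fold change over the root of F. CPM uses TMM-scaled totals, and log2 CPM a prior count of 2. DESeq2 1.42.0 and limma-voom were alternatives. FPKM was used, with no test, for the order and percentile of levels and for ratios between genes of a library. A count of 0 was given a limit of 3 counts, which covers counting error only. Relative to TMM, library totals alone shift log2 CPM by 0.17 and -0.27 in shGOLM1 replicates 1 and 2 and by 0.03 and 0.07 in shscramble, so a gene's log2 fold change moves by an amount that depends on its levels in each library. On simulated counts with the spread of the 4-library fit, edgeR's test recovered 0% of 2-fold, 20% of 4-fold and 72.1% of 16-fold changes. With the smaller spread between the shscramble libraries it recovered 87.3%, 98.1% and 100%. A gene that did not pass in the 4-library fit can therefore still differ. Both pairs differed by more than sampling noise, with a chi-square per gene of 508 in shGOLM1 and 13.8 in shscramble.

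The factors, gene lists and alternatives were chosen with earlier results of these data known. Named from each list were the 4 genes with the highest mean CPM, plus GOLM1 and, for EBF1 and BLK, the 3 closest genes. Other genes are named as chosen later, and some listed genes are not reported here. Neighbouring genes, motif searches and transcript ratios were added after seeing the data. Promoters came from RefSeq (GRCh38.p14), which held 7 of the 10 factors. Figures were drawn with matplotlib 3.10.9.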

Additional observations from a re-analysis of the deposited data

How the results depend on the processing

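The count of genes called by edgeR, 0 in the fit as reported, was 192 with no filter on low counts and 203 with the replicate number as a block, and DESeq2 called 533. It stayed at 0 with limma-voom, with DESeq2's size factors in edgeR, with library totals alone, and with genes under 5 CPM in all but 1 library left out. Leaving out 1 library gave 20 to 10290 calls, from 20 without shscramble replicate 2, 22 without shscramble replicate 1, 6721 without shGOLM1 replicate 2 and 10290 without shGOLM1 replicate 1. Of the factors other than EBF1, edgeR called 0, DESeq2 called 1, and leaving out 1 library gave 0 to 5. The replicate block called 0 of them. Replicates share only a number: deviations of same-numbered libraries correlated at -0.0977 across genes, and no shared culture or day is stated. The cause of these shifts was not tested, beyond the larger or smaller gene sets and the spread of the libraries left in.

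Leaving out 1 library moved the log2 fold change of EBF1 between -5.34 and 0.80, of POU2F2 between -6.13 and 0.90, of ID3 between -0.23 and 0.80, of IKZF1 between -2.04 and 0.32 and of IKZF3 between -0.12 and 4.94, so their direction depends on which library is kept. The lower end for POU2F2 rests on a library at 0 counts and is no bound. With library totals alone POU2F2 was at 0.0581. EBF1 was at -2.09 with the replicate block and -2.00 in limma-voom. BLK (0.25 to 0.67), POU2AF1 (2.19 to 2.63), TCF3 (-0.998 to -0.43) and ID2 (0.17 to 1.28) kept their sign in every alternative that tested them. The order of levels was the same with counts per kilobase.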
